A study of Mus musculus with 8 samples.

Results

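The genes described here are Trp53, which encodes the transcription factor p53, and 32 genes listed as targets or regulators of p53. Whether p53 acts on each of them in these cells was not tested. They form a list of 33 symbols that leaves out the targets Cdkn1a and Sesn2. The symbols were matched to the Ensembl IDs of the count files through GENCODE mouse release M21. All 33 were found among the 47069 gene rows, and all 33 passed the filter on low counts that left 14263 genes for testing. RNA had been sequenced from TetO-Klf4-AML cells at 0h, 6h, 12h and 24h, with 2 libraries at each time point. These are GFP-positive mouse leukaemia cells with MLL-AF9, a fusion oncogene of acute myeloid leukaemia, sorted from leukaemic mice, and doxycycline switches on their Klf4 transgene. All 4 groups, 0h included, share the fusion, the transgene, the bone marrow source and the strain, which the labels spell C57BL/7. The labels give neither the animals' age, nor the event from which the hours count, nor the driver of the doxycycline-responsive regulator, nor whether replicates are separate mice. Doxycycline-treated cells without the transgene were not analysed here, so time, doxycycline and KLF4 cannot be told apart.

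p53 is held at a low level by MDM2, a ubiquitin ligase whose gene is itself a p53 target, and by the related MDM4. When DNA is damaged or growth is disturbed, p53 is stabilised mostly at the protein level, and it then raises genes for cell death, growth arrest, DNA repair and metabolic control. Acute myeloid leukaemia cells with MLL fusions often keep the normal gene, and blocking MDM2 can kill them. RNA counts do not show the amount or the activity of the p53 protein.

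The libraries held between 20394546 and 26041347 gene counts. Klf4 itself had 2.71 and 4.42 CPM (counts scaled to library size, with TMM factors) at 0h and 152 and 151 CPM at 6h. From there Klf4 declined to 115 and 111 CPM at 12h and to 76.9 and 78.8 CPM at 24h. Markers of myeloid progenitors and AML blasts summed to 2110 to 2122 CPM at 24h and 2236 to 2258 CPM at 0h. Single markers of this list moved in both directions. Cd34 had 115 and 117 CPM at 24h and 242 and 244 CPM at 0h. Kit, Elane and Meis1 also stood lower at 24h than at 0h, and Itgam, Mpo and Hoxa9 stood higher. The 5 T cell markers summed to at most 0.184 CPM in any library. Of them, Cd3e and Cd3g had 0 counts in every library, which allows at most 0.151 CPM each by counting error alone. Markers of several other cell types shifted with time. The 5 neutrophil markers summed to 51.0 to 51.4 CPM at 24h and 11.5 to 12.2 CPM at 0h. Most of that rise was in Ly6g, with 38.6 and 39.2 CPM at 24h and 3.37 and 3.82 CPM at 0h. Ltf and Camp also stood higher, and Mmp8 stood lower, with 1.59 and 1.41 CPM at 24h and 1.91 and 2.85 CPM at 0h. The 4 macrophage markers, with C1qa at 0 throughout, summed to 40.5 to 44.1 CPM at 24h and 65.3 to 70.5 CPM at 0h. Nearly all of this sum was Adgre1, with 42.7 and 39.0 CPM at 24h and 64.0 and 69.0 CPM at 0h. C1qb went the other way, from 0 counts in both 0h libraries to 10 and 13 at 24h. The 4 megakaryocyte markers summed to 7.95 to 8.88 CPM at 24h and 13.3 to 13.4 CPM at 0h. The 3 endothelial markers, with Kdr at 0 throughout, summed to 139 to 145 CPM at 24h and 182 to 187 CPM at 0h. Nearly all of that sum was Pecam1, with 139 and 145 CPM at 24h and 182 and 187 CPM at 0h. Cdh5, the other endothelial marker, had at most 0.460 CPM in any library. Of B cell genes, Cd79a had 0.795 and 0.848 CPM at 24h and 0.201 and 0.230 CPM at 0h, and Cd79b had 7.72 and 7.75 CPM at 24h and 10.9 and 11.9 CPM at 0h. The 6 erythroid markers summed to at most 2.01 CPM and the 4 stromal markers to at most 0.472 CPM. Reads that fell in no annotated gene were 9.15% ± 0.16 of the total at 24h and 5.47% ± 0.32 at 0h (SD, n = 2 each). The part of these shifts in the results below was not tested, and in such bulk libraries fewer cells that use a gene cannot be told apart from less RNA per cell.

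At 24h, more of the 33 genes were lower than higher. Of the list, 14 genes were lower than at 0h and 8 were higher, at an adjusted p under 0.05 in edgeR's quasi-likelihood test over all genes. Called lower were Trp53, Bax, Perp, Eda2r, Ei24, Aen, Phlda3, Zmat3, Trp53inp1, Ccng1, Xpc, Sesn1, Dcxr and Rps27l. Called higher were Mdm4, Pml, Pmaip1, Gadd45a, Plk3, Ddb2, Rrm2b and Sesn3. The 22 called members are 66.7% of the list, and 50.9% of all genes tested were called. The share called lower was 42.4% among the members and 24.8% among all genes, and the share called higher was 24.2% and 26.1%. The median log2 fold change was -0.10 over the members and 0.02 over all genes. Most changes were small: only Gadd45a, Plk3 and Ddb2 on the high side and Eda2r on the low side passed a test against a fold of 1.5. Without a fold threshold 16 other settings were run, of which Eda2r could be tested under 15, the stricter low-count filter having removed it. Of the 22 calls at 24h, 20 held under every such setting that tested the gene, and the exceptions were Rrm2b and Sesn3.

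The members called at 6h were called in the same direction at 12h and 24h. At 6h, 9 members were lower and 3 were higher than at 0h, 36.4% of the list. The background at 6h was 18.3% of all genes, with 8.58% lower and 9.74% higher. The counts at 12h were 13 lower and 8 higher, or 63.6%, beside a background of 43.7% of all genes, with 21.6% lower and 22.1% higher. Over all 4 time points together 21 members and 52.8% of all genes differed. The 9 members called lower at 6h (Bax, Ei24, Aen, Trp53inp1, Ccng1, Xpc, Sesn1, Dcxr and Rps27l) were also called lower at 12h and 24h, and the 3 called higher at 6h (Mdm4, Pmaip1 and Gadd45a) were also higher at both later times. No member was called in opposite directions at different times. Only 4 of the 12 calls at 6h (Bax, Pmaip1, Xpc and Sesn1) and 14 of the 21 at 12h held under every other setting without a fold threshold. The 3 comparisons share the 0h libraries, so their calls are not independent of each other. The share of all genes that kept their direction in this way was not counted, so the list cannot be set against it. For 8 members, Ppm1d, Bbc3, Fas, Tnfrsf10b, Btg2, Plk2, Ckap2 and Polk, no comparison with 0h passed the test. Without 0h replicate 2, 5 members were lower and 1 was higher at 6h, and without 6h replicate 1, 1 was higher.

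**Figure D1:**
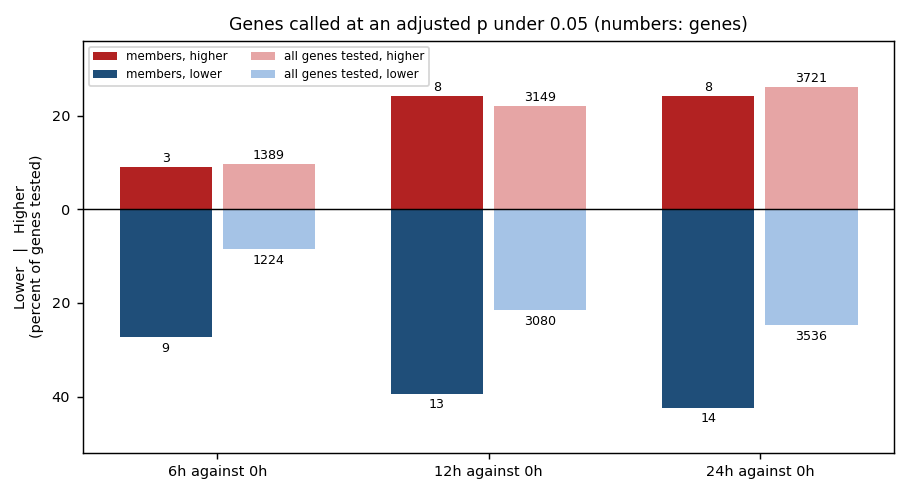
Percent of genes called higher (above the line) and lower (below it) at 6h, 12h and 24h against 0h, for the 33 members (dark bars) and all 14263 genes tested (pale bars), with the number of genes at each bar. At 24h 14 members were lower and 8 higher.

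**Figure D2:**
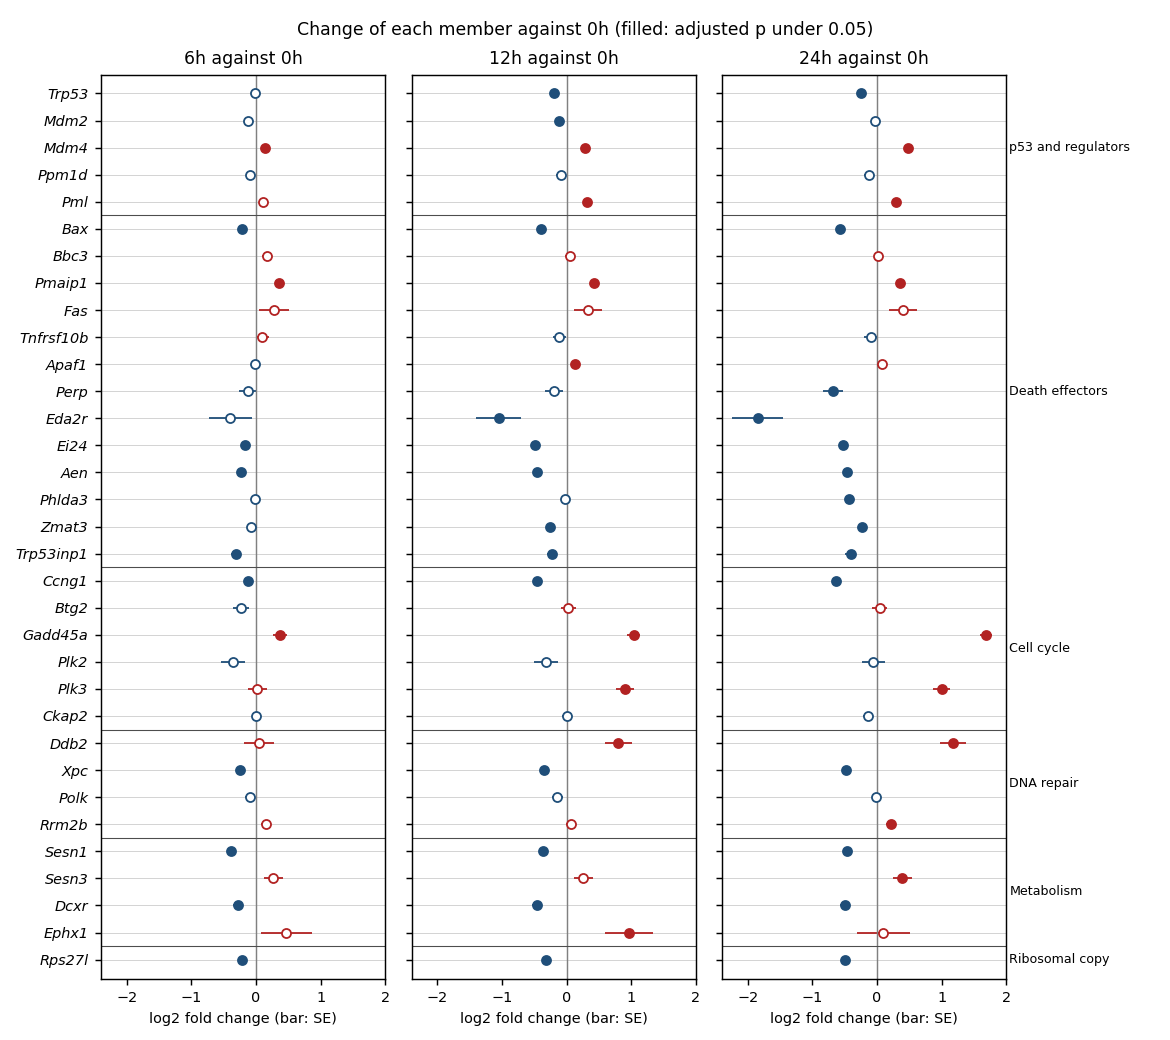
Log2 fold change against 0h of each of the 33 members at 6h, 12h and 24h, ordered by role. Bars are SE, filled points passed the test and open points did not. Gadd45a moved furthest up and Eda2r furthest down at 24h.

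The promoters of the members were read for the p53 decamer, the 10-base unit that p53 binds and that occurs as a pair in a full response element. RefSeq promoter sequences (build GRCm38.p6, which is mm10, 250 bases before to 50 after each start) were at hand for 25 of the 33 genes, with 32 starts. The pattern of the decamer, though not each single match, reads the same on both strands. It was present in 14 of these 32 promoters, or 43.8%, in 6.83% of the promoters of genes tested here, and in 8.36% of all promoters. The members were picked as p53 targets, so this share describes the list and was not tested. By the call at 24h, 8 of 13 promoters of members called lower, 2 of 6 of members called higher and 4 of 13 of uncalled members held it. A motif that KLF factors bind, GGGNGTGG on either strand, was present in 13 of the 32 promoters, 40.6%, and in 23.0% of the promoters of genes tested. Median promoter GC content was 63.0% for the members and 60.7% for genes tested. A match is a run of letters and not a measured binding site, and its absence says only that these letters are not in this window. The following windows show the decamer in capitals, 5′ to 3′ on the gene's strand, upstream of the RefSeq start of 3 members that were lower at 24h and of 2 that were higher.
Ccng1: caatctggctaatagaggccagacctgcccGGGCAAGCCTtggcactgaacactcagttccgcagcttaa
Bax: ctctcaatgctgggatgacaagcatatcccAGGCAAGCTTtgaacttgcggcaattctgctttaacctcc
Trp53: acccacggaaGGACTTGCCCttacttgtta
Pml: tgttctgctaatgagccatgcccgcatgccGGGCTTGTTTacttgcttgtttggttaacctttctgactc
Gadd45a: ggttggctgaGGGCTAGCCCcatatctccg
These windows lie at chr11:40755432-40755501 (minus strand) for Ccng1, chr7:45467060-45467129 (minus) for Bax, chr11:69580274-69580303 (plus) for Trp53, chr9:58249891-58249960 (minus) for Pml and chr6:67037428-67037457 (minus) for Gadd45a. The decamer begins 185, 201, 75, 144 and 40 bases before the start that RefSeq lists for these genes, in that order. RefSeq starts can differ from the GENCODE gene bounds given below, and by GENCODE the Gadd45a window lies inside the gene, in an exon.

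Trp53 and the 4 listed regulators, Mdm2, Mdm4, Ppm1d and Pml, had fitted changes under 1.5-fold at each time. Trp53 (ENSMUSG00000059552, chromosome 11, 69580359 to 69591873, plus strand) had 207 and 219 CPM at 0h, 208 and 213 CPM at 6h, 186 and 186 CPM at 12h, and 177 and 180 CPM at 24h. The libraries of 12h and 24h all lay below those of 0h and 6h. Its log2 fold change was -0.25 ± 0.04 at 24h (SE, adjusted p = 3.6e-06) and -0.02 ± 0.04 at 6h (adjusted p = 0.84), and it fell by 0.18 ± 0.04 at 12h relative to 6h (adjusted p = 0.0019). Later SEs are of the same kind. Mdm4 (chromosome 1, 132959484 to 133030561, minus strand), whose protein blocks the activation domain of p53, went the other way. It had 174 and 165 CPM at 0h, 201 and 175 CPM at 6h, 203 and 211 CPM at 12h, and 226 and 247 CPM at 24h. Every later library lay above both 0h libraries, though by little in 6h replicate 2, and the 2 24h libraries were the highest. Mdm4 was higher than at 0h by 0.48 ± 0.05 at 24h (adjusted p = 4.8e-10) and by 0.28 ± 0.05 at 12h (adjusted p = 2.0e-05). The call at 6h (0.14 ± 0.05, adjusted p = 0.047) was lost under 9 of 16 other settings, with an adjusted p of 0.69 without 6h replicate 1 and 0.37 without 0h replicate 2.

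Mdm2, the ligase gene and a standard readout of p53 activity, was nearly level. It had 101 and 99.3 CPM at 0h, 93.7 and 91.2 CPM at 6h, 92.1 and 92.7 CPM at 12h, and 94.2 and 103 CPM at 24h. At 24h its libraries stood on both sides of the 0h libraries, with a log2 difference of -0.03 ± 0.05 (adjusted p = 0.69). At 12h it was just past the threshold at -0.12 ± 0.05, a call that was lost under 11 of 16 other settings, among them DESeq2 with an adjusted p of 0.13. Pml, which encodes the scaffold of PML nuclear bodies where p53 is modified, had 78.0 and 83.8 CPM at 24h, above 66.3 and 66.1 CPM at 0h. It rose by 0.29 ± 0.05 (adjusted p = 1.8e-05), and by 0.31 ± 0.05 at 12h. Ppm1d, the gene of the WIP1 phosphatase that switches damage signalling off, had 36.4 and 32.1 CPM at 24h and 36 and 39.1 CPM at 0h and was called at none of the 3 later times. Without 24h replicate 1 the value of Ppm1d was -0.23 (adjusted p = 0.021).

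**Figure D3:**
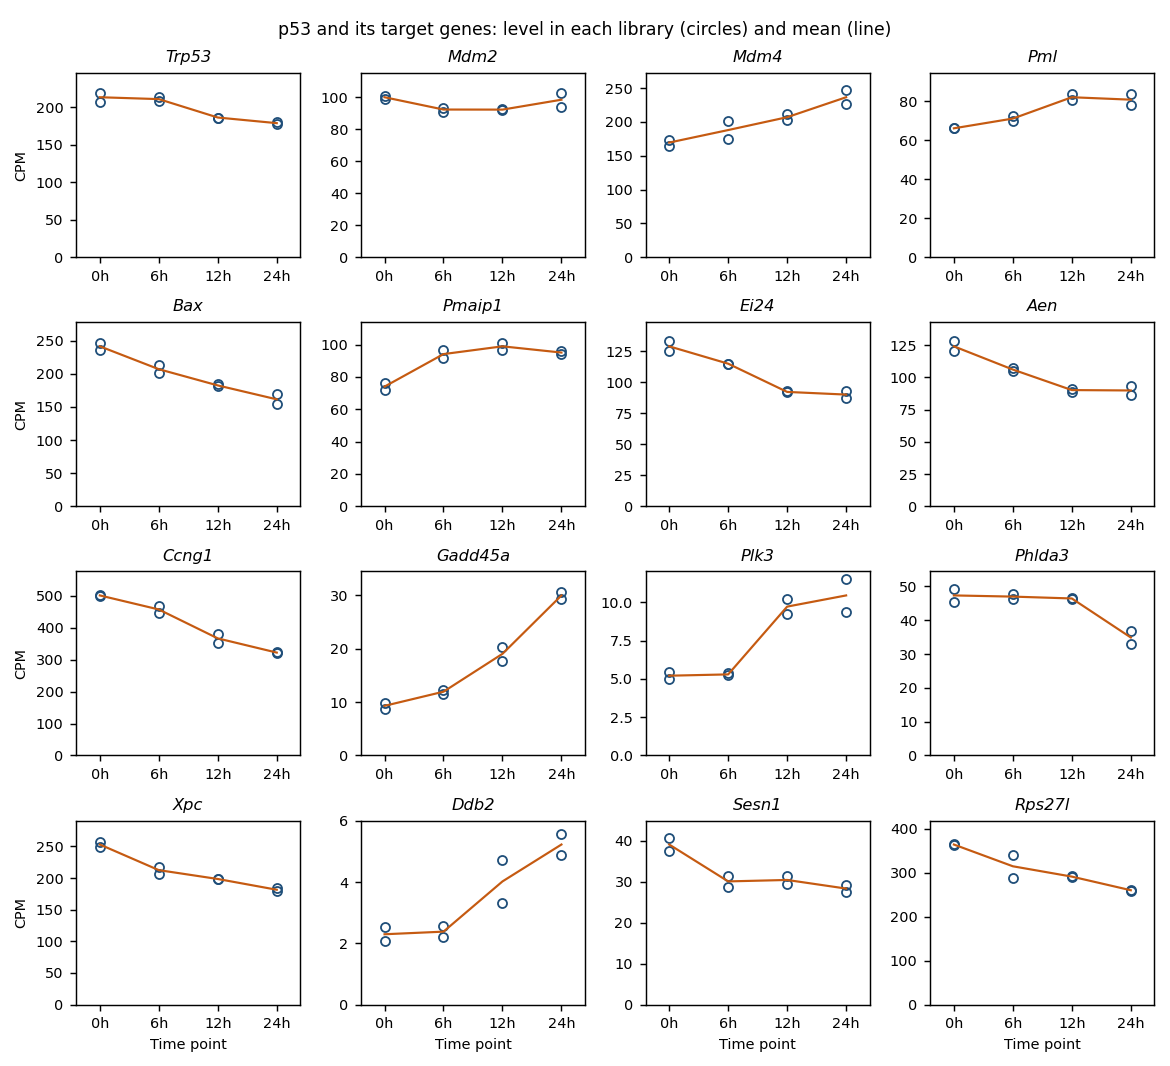
CPM of 16 members in each library (circles, n = 2 per time point) and their mean (line) at 0h, 6h, 12h and 24h, with each axis starting at 0. Ccng1, Bax, Ei24, Aen, Xpc and Sesn1 lie lower at each mean from 6h or 12h on, Phlda3 lies lower at 24h, and Gadd45a climbs to 30.7 and 29.3 CPM at 24h.

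Among the 13 death effectors, 8 were called lower at 24h, 1 was called higher and 4 passed in neither direction. That is 61.5% lower and 7.69% higher, beside 24.8% and 26.1% of all genes. Bax (ENSMUSG00000003873, chromosome 7, 45461697 to 45466898, minus strand) encodes the pore-forming executioner of mitochondrial apoptosis. Its level was 236 and 247 CPM at 0h, 201 and 213 CPM at 6h, 181 and 184 CPM at 12h, and 169 and 154 CPM at 24h, so each time point lay wholly below the one before. Bax fell by 0.58 ± 0.05 at 24h (adjusted p = 3.4e-13), a decrease of 33.1%. Gm45808, a protein-coding gene on the same strand, covers 12.2% of the exon bases of Bax. Reads from there may have been lost in the counting, which was not tested. The BH3-only gene Pmaip1, which encodes NOXA, was the 1 death effector that rose. It had 76.2 and 71.8 CPM at 0h, 96.7 and 91.5 CPM at 6h, 96.8 and 101 CPM at 12h, and 94.3 and 95.8 CPM at 24h. All 6 later libraries were above both 0h libraries and close to one another. The rise was 0.35 ± 0.05 at 6h (adjusted p = 2.9e-06), 0.42 ± 0.05 at 12h and 0.36 ± 0.05 at 24h (adjusted p = 1.9e-07). It held under all 16 other settings in each of the 3 comparisons. Bbc3, which encodes PUMA, the other BH3-only protein of the list, had 41.3 and 34.5 CPM at 24h and 36.8 and 37.9 CPM at 0h (log2 difference 0.02 ± 0.07, adjusted p = 0.81). Its sign turned with a GC and length correction, to -0.19 (adjusted p = 0.012) at 24h and -0.21 (adjusted p = 0.0065) at 12h.

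Ei24, an endoplasmic reticulum protein linked to autophagy, and Aen, a nuclease of apoptotic cells, declined until 12h. Ei24 had 92.8 and 87.4 CPM at 24h and 125 and 133 CPM at 0h, and fell by 0.52 ± 0.05 (adjusted p = 1.7e-11). Aen had 93.6 and 86 CPM at 24h and 120 and 128 CPM at 0h, and fell by 0.47 ± 0.05 (adjusted p = 5.2e-10). In both genes the libraries of 24h and 0h were well apart. Both also fell at 12h relative to 6h, Ei24 by 0.32 ± 0.05 (adjusted p = 5.9e-06) and Aen by 0.24 ± 0.05 (adjusted p = 0.00069). The log2 differences at 24h relative to 12h were -0.03 ± 0.05 and -0.00 ± 0.05 (adjusted p = 0.78 and 0.98). Without 0h replicate 2, their calls at 6h had an adjusted p of 0.23 for Ei24 and 0.066 for Aen.

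Phlda3, whose protein competes with AKT for membrane lipids, had a late course. It had 45.4 and 49.3 CPM at 0h, 46.2 and 47.8 CPM at 6h, 46.6 and 46.3 CPM at 12h, and 36.8 and 33 CPM at 24h. Only the 24h libraries stood apart from the others. Phlda3 fell by 0.41 ± 0.06 at 24h relative to 12h (adjusted p = 2.1e-05), and the log2 difference at 12h relative to 0h was -0.03 ± 0.06 (adjusted p = 0.75). With the GC and length correction Phlda3 was called at 12h, at -0.17 (adjusted p = 0.012). Perp, a membrane protein of desmosomes and apoptosis, had 4.01 and 5.25 CPM at 24h and 7.24 and 7.60 CPM at 0h, and fell by 0.68 ± 0.15 (adjusted p = 0.00026). Eda2r, the receptor of ectodysplasin A2, had the largest fall of the list. It rested on few reads, 8 and 14 counts at 24h and 37 and 28 counts at 0h, or 0.303 and 0.565 CPM and 1.86 and 1.29 CPM. Its log2 fold change was -1.85 ± 0.39 at 24h (adjusted p = 0.00013).

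Zmat3, an RNA-binding zinc finger protein, and Trp53inp1, a stress protein that acts with p53 in cell death and autophagy, changed less. Zmat3 had 50.5 and 51.0 CPM at 24h and 62.6 and 57.6 CPM at 0h, and fell by 0.24 ± 0.06 (adjusted p = 0.00055). Trp53inp1 had 22.8 and 24.2 CPM at 24h and 31.9 and 30.6 CPM at 0h, and fell by 0.41 ± 0.08 (adjusted p = 3.1e-05). The death receptor genes Fas and Tnfrsf10b were not called in any comparison. Fas was scarce, with 3.41 and 3.59 CPM at 24h and 3.42 and 1.93 CPM at 0h, and the 0h libraries were far apart. Its log2 difference was 0.40 ± 0.22 (adjusted p = 0.13), and 0.85 (adjusted p = 0.010) without 0h replicate 1 and 0.63 (adjusted p = 0.016) with the GC and length correction. Tnfrsf10b had 12.1 and 11.2 CPM at 24h and 13.1 and 12.0 CPM at 0h. Apaf1, the core of the apoptosome, had 151 and 160 CPM at 24h and 151 and 143 CPM at 0h (log2 difference 0.08 ± 0.05, adjusted p = 0.13). Apaf1 was called higher at 12h alone (0.13 ± 0.05, adjusted p = 0.019), a call that DESeq2 did not make (adjusted p = 0.074).

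Of the 6 cell cycle and growth arrest genes, 2 were called higher at 24h and 1 lower, 33.3% and 16.7%, beside 26.1% and 24.8% of all genes. Gadd45a (ENSMUSG00000036390, chromosome 6, 67035096 to 67037457, minus strand) encodes a stress sensor that binds PCNA and CDK1 and activates stress kinases. Its level was 9.80 and 8.79 CPM at 0h, 12.3 and 11.6 CPM at 6h, 17.7 and 20.4 CPM at 12h, and 30.7 and 29.3 CPM at 24h. No library of a later time overlapped an earlier time. Gadd45a had the largest rise of the list, 1.69 ± 0.09 at 24h (adjusted p = 1.6e-17), or 3.23-fold. It rose by 0.67 ± 0.09 at 12h relative to 6h (adjusted p = 1.7e-06) and by 0.65 ± 0.08 at 24h relative to 12h (adjusted p = 3.7e-07). Its call at 6h (0.37 ± 0.11, adjusted p = 0.015) was lost without 0h replicate 2 (adjusted p = 0.21), without 6h replicate 1 (0.088) and with DESeq2 (0.087). The noncoding gene E230016M11Rik covers 19.1% of the exon bases of Gadd45a on the opposite strand, and the strand setting of the counting is not given in the sources used here. That gene had 1.10 and 1.78 CPM at 24h and 0.704 and 0.691 CPM at 0h (log2 fold change 1.03 ± 0.38, adjusted p = 0.023).

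Plk3, a polo-like kinase activated by stress, moved in 1 step between 6h and 12h. It had 4.98 and 5.43 CPM at 0h, 5.35 and 5.23 CPM at 6h, 10.2 and 9.23 CPM at 12h, and 9.39 and 11.5 CPM at 24h. The 4 libraries of 0h and 6h lay together, and the 4 of 12h and 24h lay well above them. Plk3 rose by 0.88 ± 0.13 at 12h relative to 6h (adjusted p = 8.9e-06) and was higher than at 0h by 1.0 ± 0.13 at 24h (adjusted p = 1.1e-07). Plk2, a related kinase that p53 also induces, had 3.41 and 3.84 CPM at 24h and 3.87 and 3.68 CPM at 0h (log2 difference -0.06 ± 0.18, adjusted p = 0.80).

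Ccng1 (ENSMUSG00000020326, chromosome 11, 40748552 to 40755311, minus strand) encodes cyclin G1, which brings a phosphatase to MDM2. By CPM it was the most counted member, with 502 and 500 CPM at 0h, 469 and 445 CPM at 6h, 381 and 352 CPM at 12h, and 321 and 323 CPM at 24h. Each time point lay wholly below the one before. Ccng1 fell by 0.64 ± 0.04 at 24h (adjusted p = 3.7e-15), a decrease of 35.8%, and by 0.32 ± 0.04 at 12h relative to 6h (adjusted p = 8.0e-07). Its call at 6h was lost under 5 of 16 other settings, with adjusted p-values of 0.12 without 0h replicate 1 or replicate 2 and 0.27 with the GC and length correction. Btg2, an antiproliferative gene that speeds mRNA deadenylation, had 9.01 and 9.81 CPM at 24h and 9.70 and 8.56 CPM at 0h. Ckap2, a gene of the mitotic spindle, had 34.4 and 34.7 CPM at 24h and 37.4 and 38.7 CPM at 0h (log2 difference -0.14 ± 0.07, adjusted p = 0.072).

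The 2 genes that recognise DNA lesions for nucleotide excision repair moved in opposite directions. Xpc, whose protein senses distorted DNA across the genome, had 257 and 249 CPM at 0h, 207 and 218 CPM at 6h, 199 and 198 CPM at 12h, and 179 and 184 CPM at 24h. Each later time was below the earlier ones. Xpc fell by 0.48 ± 0.04 at 24h (adjusted p = 5.9e-12) and by 0.25 ± 0.04 at 6h (adjusted p = 2.2e-05). Ddb2, whose protein finds ultraviolet lesions and hands them to XPC, was scarce, with 2.06 and 2.53 CPM at 0h, 2.20 and 2.56 CPM at 6h, 3.32 and 4.72 CPM at 12h, and 5.56 and 4.89 CPM at 24h. Both 24h libraries were above every other library. Ddb2 rose by 1.18 ± 0.20 at 24h (adjusted p = 6.0e-06), 2.27-fold, from 147 and 121 counts at 24h and 41 and 55 at 0h. At 12h the rise of 0.80 ± 0.21 (adjusted p = 0.0021) was lost without 12h replicate 2 (adjusted p = 0.11). The gene Acp2 covers 23.8% of the exon bases of Ddb2 on the opposite strand. Acp2 had 28.3 and 31.2 CPM at 24h and 28.4 and 29.4 CPM at 0h (log2 difference 0.04 ± 0.07, adjusted p = 0.67).

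Polk, a polymerase that copies past damaged bases, had 29.7 and 30.4 CPM at 24h and 31.6 and 28.9 CPM at 0h (log2 difference -0.01 ± 0.07, adjusted p = 0.94). Rrm2b, the ribonucleotide reductase subunit that supplies nucleotides outside S phase, had 23.2 and 25.1 CPM at 24h and 20.3 and 21.1 CPM at 0h. Its rise of 0.22 ± 0.08 (adjusted p = 0.018) was lost with DESeq2 (0.15), without 0h replicate 1 (0.13), without 0h replicate 2 (0.0506) and without 24h replicate 2 (0.17).

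Sestrins restrain the growth kinase mTORC1, and the 2 on the list differed in sign. Sesn1 had 40.6 and 37.5 CPM at 0h, 31.3 and 28.8 CPM at 6h, 31.4 and 29.4 CPM at 12h, and 27.4 and 29.2 CPM at 24h. The 6 later libraries lay in a narrow range below both 0h libraries. Sesn1 fell by 0.38 ± 0.07 at 6h (adjusted p = 0.00011) and by 0.46 ± 0.07 at 24h (adjusted p = 8.0e-07). Its log2 difference at 12h relative to 6h was 0.02 ± 0.07 (adjusted p = 0.87). Sesn3 had 7.46 and 6.62 CPM at 24h and 4.82 and 5.89 CPM at 0h. The rise of 0.39 ± 0.15 (adjusted p = 0.026) was lost with DESeq2 (0.17), with the GC and length correction (0.15), without 0h replicate 1 (0.25) and without 24h replicate 1 (0.19).

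The remaining metabolic genes and Rps27l were mostly lower. Dcxr, a reductase of sugars and carbonyls, had 25.2 and 22.5 CPM at 24h and 33.4 and 34.3 CPM at 0h, and fell by 0.50 ± 0.08 (adjusted p = 6.9e-07). Ephx1, the epoxide hydrolase of the endoplasmic reticulum, was close to 1 CPM throughout, with 0.719 and 0.727 CPM at 24h and 0.704 and 0.645 CPM at 0h. It was called higher at 12h only (0.97 ± 0.37, adjusted p = 0.034), and leaving out any 1 of the 0h or 12h libraries ended that call. Rps27l, a close copy of the ribosomal protein gene Rps27, had 366 and 362 CPM at 0h, 288 and 341 CPM at 6h, 292 and 290 CPM at 12h, and 259 and 261 CPM at 24h. The 24h libraries were the lowest and the 6h libraries were far apart. Rps27l fell by 0.49 ± 0.05 at 24h (adjusted p = 1.6e-10). Its calls at 6h and 12h were lost with the GC and length correction (adjusted p = 0.67 and 0.10). Reads shared with Rps27 may have been lost or split in the counting, which was not tested. Rps27 itself had 565 and 640 CPM at 24h and 614 and 618 CPM at 0h (log2 difference -0.03 ± 0.07, adjusted p = 0.71). At 6h its libraries, 493 and 651 CPM, were unequal in the same order as those of Rps27l. That order was not particular to this pair. Rpl5 (1232 and 1297 CPM), Rpl11 (1025 and 1103 CPM) and Rpl23 (942 and 1037 CPM) had it at 6h too. Huwe1 (639 and 569 CPM) and Mdm4 (201 and 175 CPM) had the reverse order.

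Levels were also set per kilobase of annotated exon, since CPM favours long transcripts. On that scale Rps27l led with 318 at 24h and 446 at 0h, followed by Bax with 102 at 24h and 153 at 0h and Ccng1 with 91.6 at 24h and 143 at 0h. Trp53 had rank 4 with 44.1 at 24h and 52.6 at 0h. Gadd45a moved to rank 13 of 33 at 24h, against rank 20 at 0h, and Pmaip1 to rank 5 against rank 8. Eda2r was lowest at both times. The 14 members called lower at 24h had a median of 92.0 CPM at 0h, the 8 called higher 15.0 CPM and the 11 uncalled 30.3 CPM. Among all genes the medians at 0h were 67.3 CPM for those called lower, 15.7 CPM for those called higher and 8.94 CPM for those not called. Median GC content of the longest transcript was 49.9% in the members called lower and 45.0% in those called higher, and 49.3% and 50.9% in all genes called lower and higher.

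The steps from one later time to the next compare no 0h library, although the 0h libraries enter the shared fit. At 12h relative to 6h, 6 members were higher (Mdm4, Pml, Apaf1, Gadd45a, Plk3 and Ddb2) and 6 were lower (Trp53, Bax, Ei24, Aen, Zmat3 and Ccng1), 36.4% of the list. The background was 20.7% of all genes, with 10.9% higher and 9.79% lower. At 24h relative to 12h, 2 were higher (Mdm4 and Gadd45a) and 5 lower (Bax, Perp, Phlda3, Ccng1 and Rps27l), 21.2% of the list, against 6.46% of all genes, 3.41% higher and 3.04% lower. Under all 16 other settings, 6 of the 12 calls of the earlier step held, and of the 7 calls of the later step those of Gadd45a and Phlda3. Leaving out 12h replicate 1 cut the earlier step to 3 higher, and the later step to 1 higher and 1 lower. Without 12h replicate 2 the later step had 1 higher and 2 lower, without 24h replicate 1 it had 3 lower, and without 24h replicate 2 it had 1 higher and 3 lower.

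Another pair of lists from the pathway were counted in the same fit. Of 25 tested p53 regulators and cofactors, 8 were higher and 4 lower at 24h, and of 34 tested further p53 targets 12 were higher and 9 lower. These are 48.0% of the regulators (32.0% higher, 16% lower) and 61.8% of the targets (35.3% higher, 26.5% lower), beside 50.9% of all genes (26.1% higher, 24.8% lower). Cdkn1a, which encodes the cell cycle inhibitor p21 and is the best known p53 target, had 187 and 182 CPM at 24h and 193 and 201 CPM at 0h (log2 difference -0.10 ± 0.04, adjusted p = 0.063). At 12h Cdkn1a was called higher, by 0.12 ± 0.04 (adjusted p = 0.029). At 24h relative to 12h it was called lower, with a log2 difference of -0.22 ± 0.04 (adjusted p = 0.0011). The sestrin gene Sesn2, which the stress factor ATF4 also controls, had 111 and 112 CPM at 24h and 56.3 and 60.5 CPM at 0h, and rose by 0.93 ± 0.05 (adjusted p = 1.2e-17). The 8 other genes with the largest called changes were all higher. Ass1, the argininosuccinate synthase of arginine synthesis, had 183 and 185 CPM at 24h and 38.5 and 41.7 CPM at 0h, a rise of 2.20 ± 0.05. Crebbp, an acetyltransferase that serves p53 as a coactivator, rose by 0.70 ± 0.06, and Ppp1r13l, whose protein iASPP inhibits p53, by 0.95 ± 0.16. Thbs1, the gene of the secreted thrombospondin, rose by 0.82 ± 0.05 at 24h after a fall of 0.34 ± 0.05 at 12h. Hic1, a transcriptional repressor, rose by 1.53 ± 0.39, Trp53i11 by 1.16 ± 0.23 and the Ral activator Ralgps2 by 0.85 ± 0.23, all from under 2 CPM at 0h. At 6h the rise of Hic1 was larger, 2.51 ± 0.35. Gdf15, a stress cytokine, had 16 and 14 counts at 24h and 1 and 3 counts at 0h, so its fitted value of 2.54 ± 0.67 depends on the prior count.

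**Figure D4:**
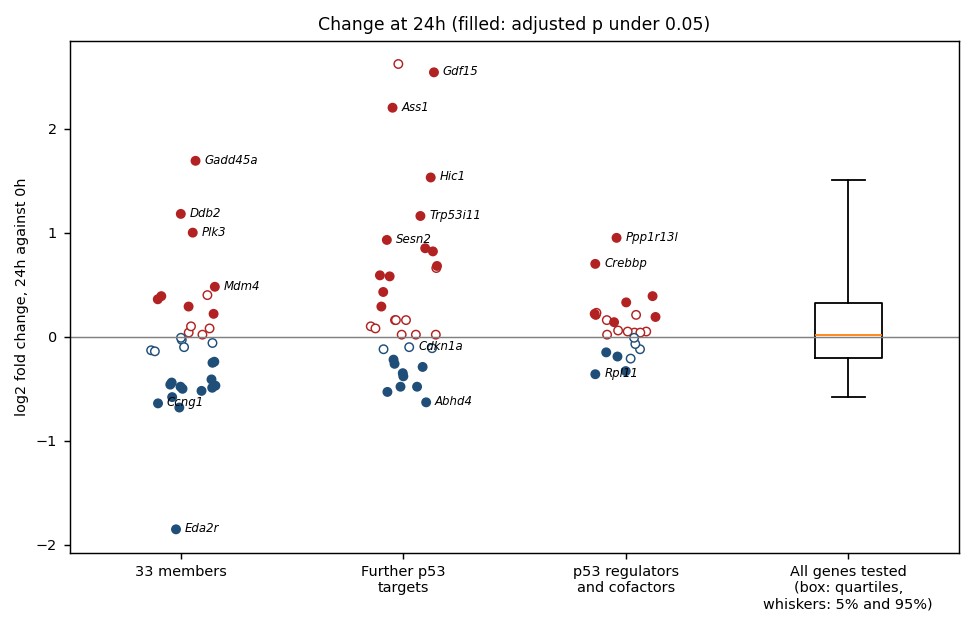
Log2 fold change at 24h against 0h for the 33 members, 34 further p53 targets and 25 p53 regulators and cofactors (points, filled where the test was passed), beside all genes tested (box with quartiles, whiskers at 5% and 95%). Gadd45a, Ddb2 and Plk3 lie above the other members, and Eda2r lies below them.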

How the data were processed

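RNA-seq was made from total RNA of 8 libraries of sorted leukaemia cells, per the labels' protocols with an RNeasy kit and a TruSeq PE kit. The authors deposited raw counts per Ensembl gene, 1 table per library, with 5 summary rows not used for depth or testing. The submitters' processing notes name build mm10 and the tools HTSeq 2.0.3, SAMtools 1.3 and STAR. The sources used here give neither annotation release nor strand setting. Names and coordinates came from GENCODE M21 (46574 of 47069 IDs matched).

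Genes were kept with filterByExpr, scaled by TMM and tested with edgeR 4.0.16 in R 4.3.3, 1 quasi-likelihood fit over all 8 libraries with a mean per time point. P-values were adjusted over all 14263 genes by Benjamini-Hochberg, two-sided. They measure the spread between libraries, which may be technical. The spread of each gene was drawn strongly toward that of all genes, with a median of 32.1 prior degrees of freedom beside 4 residual ones. SEs are the log2 fold change divided by the square root of F. The pipeline was tested on simulated data with changes of 1.5-fold or more at 24h, and smaller changes were not simulated. All 33 members are named, with Klf4, Rps27, Cdkn1a, Sesn2 and the 8 other listed pathway genes with the largest called change at 24h. Overlapping genes are named for Bax, Gadd45a and Ddb2 only. E230016M11Rik and Acp2 were chosen after their values were seen. Cd79a and Cd79b are given singly, and the B cell list as a whole is not reported here. Members and lists were chosen with earlier results of these data known. Alternatives were DESeq2 1.42.0, DESeq2 size factors, upper quartile scaling, no or a stricter low-count filter (mean log2 CPM of 1), a replicate block, the 4 libraries compared, a fold of 1.5, a GC and length correction, and leaving out each library.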

Additional observations from a re-analysis of the deposited data

Results flagged for a closer look

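Reads that fell in no annotated gene lie outside the measurement used above and were above the 0h libraries at every later time. Their mean share of all reads was 6.21% at 6h, 8.63% at 12h and 9.15% at 24h, against 5.47% at 0h (n = 2 each). Its part in the changes of the p53 genes was not tested.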

How the results depend on the processing

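Of 2795 recomputed member values, 2604 stayed on their side of the threshold (some uncalled values near 0 changed sign), 167 lost a call with the same sign, 22 gained one with the same sign and 2 gained one with the opposite sign, both of Bbc3 with the GC and length correction (-0.21 at 12h and -0.19 at 24h). The test against a fold of 1.5 (edgeR's glmTreat) called 3 members higher and 1 lower at 24h, 1 higher and 0 lower at 12h, and 0 in either direction at 6h and in both later steps. Over all genes it called 843 higher and 110 lower at 24h, 579 higher and 21 lower at 12h, and 212 higher with 1 lower at 6h. At an unadjusted p under 0.05 it gave 3 members higher and 2 lower at 24h. It gave 2 higher and 1 lower at 12h and 0 at 6h. Unadjusted, it gave 1 higher at 12h relative to 6h and 0 at 24h relative to 12h. Of the other pathway genes it called 6 higher and 0 lower at 24h (11 and 0 unadjusted). DESeq2 called 1 member higher at 6h, 3 higher at 12h relative to 6h, and 1 higher with 3 lower at 24h relative to 12h. Over all genes DESeq2 called 1558 at 6h, against 2613 with edgeR, and 417 at 24h relative to 12h, against 921. Leaving out each library in turn gave 1 to 3 members higher and 5 to 9 lower at 6h, 6 to 8 higher and 10 to 13 lower at 12h, and 7 to 8 higher and 14 to 15 lower at 24h. The ranges were 3 to 6 higher and 4 to 8 lower for 12h relative to 6h, 1 to 2 higher and 1 to 6 lower for 24h relative to 12h, 20 to 23 over the time course, and 17 to 21 higher and 13 to 14 lower for the other pathway genes at 24h. The single library left at a time was taken to have the spread of the rest. With a replicate block 21 members were called over the time course, the same number as without it, and the block ended the calls of Mdm4 at 6h (adjusted p = 0.0537) and Mdm2 at 12h (0.057). Nothing in the labels ties equal replicate numbers to a shared source, and their deviations correlated at -0.017 to 0.021 across genes. No scaling moved the median of all genes by 0.1 on the log2 scale. The cause of these differences was not tested. Counts were low for Eda2r (8 and 14 at 24h, 37 and 28 at 0h) and Ephx1 (19 and 18 at 24h, 14 and 14 at 0h), which limits their precision.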
